A study of Homo sapiens with 16 samples.

Results

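The mevalonate and isoprenoid arm of cholesterol synthesis was followed through 7 enzyme genes, ACAT2, MVK, PMVK, MVD, IDI1, FDPS and GGPS1, of 15240 gene symbols on the array. They were chosen by name, with earlier results of these data known, as all probes that the array's probe table assigns to these symbols. All 7 had a probe, ACAT2 had 2 and the others 1 each, which gives 8 probes. HepG2, a line from a human liver tumour with much of the metabolism of hepatocytes, was kept in serum-free medium for 7 days with 100 µM elaidic acid (the trans isomer of the 18-carbon monounsaturated acid), with 100 µM oleic acid (its cis isomer), with 100 µM stearic acid (the saturated acid of that chain length), or as a control without added fatty acid. Each of the 4 groups held 4 biological replicates, and each replicate had 2 technical arrays that the deposited table gives as 1 value per probe. All 16 samples are of this 1 cell line.

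The arm begins with ACAT2, the cytosolic thiolase that joins acetyl-CoA units into acetoacetyl-CoA, and makes mevalonate, which MVK and then PMVK phosphorylate and MVD decarboxylates to isopentenyl diphosphate. IDI1 turns that unit into its reactive isomer dimethylallyl diphosphate, FDPS joins the units to farnesyl diphosphate, and GGPS1 adds a further unit to give geranylgeranyl diphosphate. Farnesyl diphosphate is the branch point at which carbon goes to squalene and cholesterol or, through the isoprenoid branch, to protein prenylation, dolichol and ubiquinone. In liver cells the transcription factor SREBP-2 raises the transcription of the pathway's genes when sterols in the endoplasmic reticulum are low, by binding sterol regulatory elements that often lie beside CCAAT boxes. The steps between ACAT2 and MVK were not analysed here. SOAT2, a sterol acyltransferase that has also been called ACAT2, has a probe of its own symbol in the table.

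Promoter sequence was matched by symbol for 6 of the 7 genes in RefSeq (GRCh38.p14), from 250 bases before to 50 bases after the start site. ACAT2 had no entry. The CCAAT box (CCAAT, searched on both strands, where the opposite strand reads ATTGG) was found in 3 of the 6, which are MVK with 5 copies, MVD with 3 and FDPS with 3. It was found in 34.6% of all 35116 promoters of that length. The GC box (GGGCGG, both strands) was found in 5 of the 6 and in 45% of all promoters, and it did not overlap a CCAAT box in MVK, MVD or FDPS. The sterol regulatory element searched as TCACNCCAC, both strands, was found in 0 of the 6 and in 1.13% of all promoters, which says only that these letters are not in these windows. A link between these boxes and the differences between groups was not tested. Against oleic acid, between arrays of 1 slide series, IDI1, which has no CCAAT box, differed by 1.02 and MVD by 0.99. The promoters of the 3 genes that hold CCAAT boxes are shown because MVK and MVD had the largest differences from control between arrays of 1 slide series, while FDPS, with the same box, had the smallest. They lie at chr12:109573544-109573843 (plus strand), chr16:88663042-88663341 (minus strand) and chr1:155308616-155308915 (plus strand), are written 5′ to 3′ along the gene, and have the CCAAT boxes in capitals.
MVK: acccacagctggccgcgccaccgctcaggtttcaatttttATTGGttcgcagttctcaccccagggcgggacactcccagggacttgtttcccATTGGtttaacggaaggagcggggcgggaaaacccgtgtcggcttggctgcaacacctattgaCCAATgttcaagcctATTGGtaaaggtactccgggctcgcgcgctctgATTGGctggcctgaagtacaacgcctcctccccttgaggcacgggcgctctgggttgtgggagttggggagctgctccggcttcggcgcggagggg
MVD: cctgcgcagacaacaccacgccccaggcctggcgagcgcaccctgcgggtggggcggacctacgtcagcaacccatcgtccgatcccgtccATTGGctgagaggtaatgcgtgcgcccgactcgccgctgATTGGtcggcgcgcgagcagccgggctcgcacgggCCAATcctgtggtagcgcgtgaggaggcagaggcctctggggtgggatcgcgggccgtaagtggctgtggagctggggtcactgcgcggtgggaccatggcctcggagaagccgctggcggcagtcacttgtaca
FDPS: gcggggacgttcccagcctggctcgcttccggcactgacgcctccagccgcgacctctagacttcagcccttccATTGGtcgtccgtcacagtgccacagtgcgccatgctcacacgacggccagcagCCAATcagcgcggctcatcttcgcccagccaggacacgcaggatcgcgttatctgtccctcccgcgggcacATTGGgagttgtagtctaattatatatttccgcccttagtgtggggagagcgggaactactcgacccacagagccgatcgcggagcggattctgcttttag

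The arrays fall into 2 ranges of array numbers in the labels, called slide series A and B here, and this division is confounded with the groups. Series A holds elaidic acid replicates 2 and 4, all oleic acid and all control samples, and series B holds elaidic acid replicates 1 and 3 and all stearic acid samples. Elaidic acid can thus be compared with oleic acid and with control inside series A (2 against 4 samples) and with stearic acid inside series B (2 against 4). No series holds stearic acid beside oleic acid or control, and for those contrasts series and fatty acid cannot be told apart. Median intensity per array ran from 20 to 76.1. The cell type was checked on 10 hepatocyte markers, of which 8 were tested and ALB and HNF4A had no probe of that symbol. Their median brightness stood at percentile 98.2 of the tested probes, while 8 tested markers of blood, connective tissue and vessel cells stood at a median percentile of 31.8. The arrays measure bulk RNA, so fewer cells that express a gene and less RNA per cell cannot be told apart.

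Levels below are log2 intensities after quantile normalisation between samples, and a level of 1 probe is not comparable with that of another. A probe was tested if its intensity was above 0 in all 16 samples, and called where limma's p, adjusted by Benjamini and Hochberg over all 22939 tested probes, was under 0.05. Of the 8 member probes 7 were tested, for 6 genes. The PMVK probe was left out because its intensity was at or below 0 in 1 sample, oleic acid replicate 1. Log2 differences and their standard errors come from a fit on all 16 samples, and a second fit has slide series as a block, which makes the elaidic acid contrasts differences within 1 series. Differences given as within or inside a series are from this second fit. Their standard errors, intervals and p use the spread over all 16 samples, not that of the series alone. In fits on 1 slide series alone 0 probes passed in the elaidic acid contrasts.

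With elaidic acid all 6 tested genes of the arm had higher mean levels than in control, by a median log2 difference of 0.60, where the median over all tested probes was -0.10. No member probe passed the test, and 0.323% of all probes did. Both elaidic acid levels and control levels were free of overlap for 2 of the 7 probes, the bright ACAT2 probe and MVK, in the upward direction, where 3.82% of all probes were. Inside series A the elaidic acid pair was above all 4 controls for MVK, MVD and the bright ACAT2 probe, where 7.17% of all probes were. With the block the median over the 6 genes was 0.47, again with 6 of 6 higher, none passed (0.0392% of all probes did), and the median over all probes was 0.02. The mean log2 level over the 6 genes was 9.79, 9.61, 9.70 and 9.56 in elaidic acid replicates 1 to 4, against 9.07, 9.12, 9.05 and 8.95 in control replicates 1 to 4. It was between 8.48 and 8.99 with oleic acid and between 9.11 and 9.41 with stearic acid, so that the 4 elaidic acid samples of both series were the 4 highest of the 16.

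**Figure D1:**
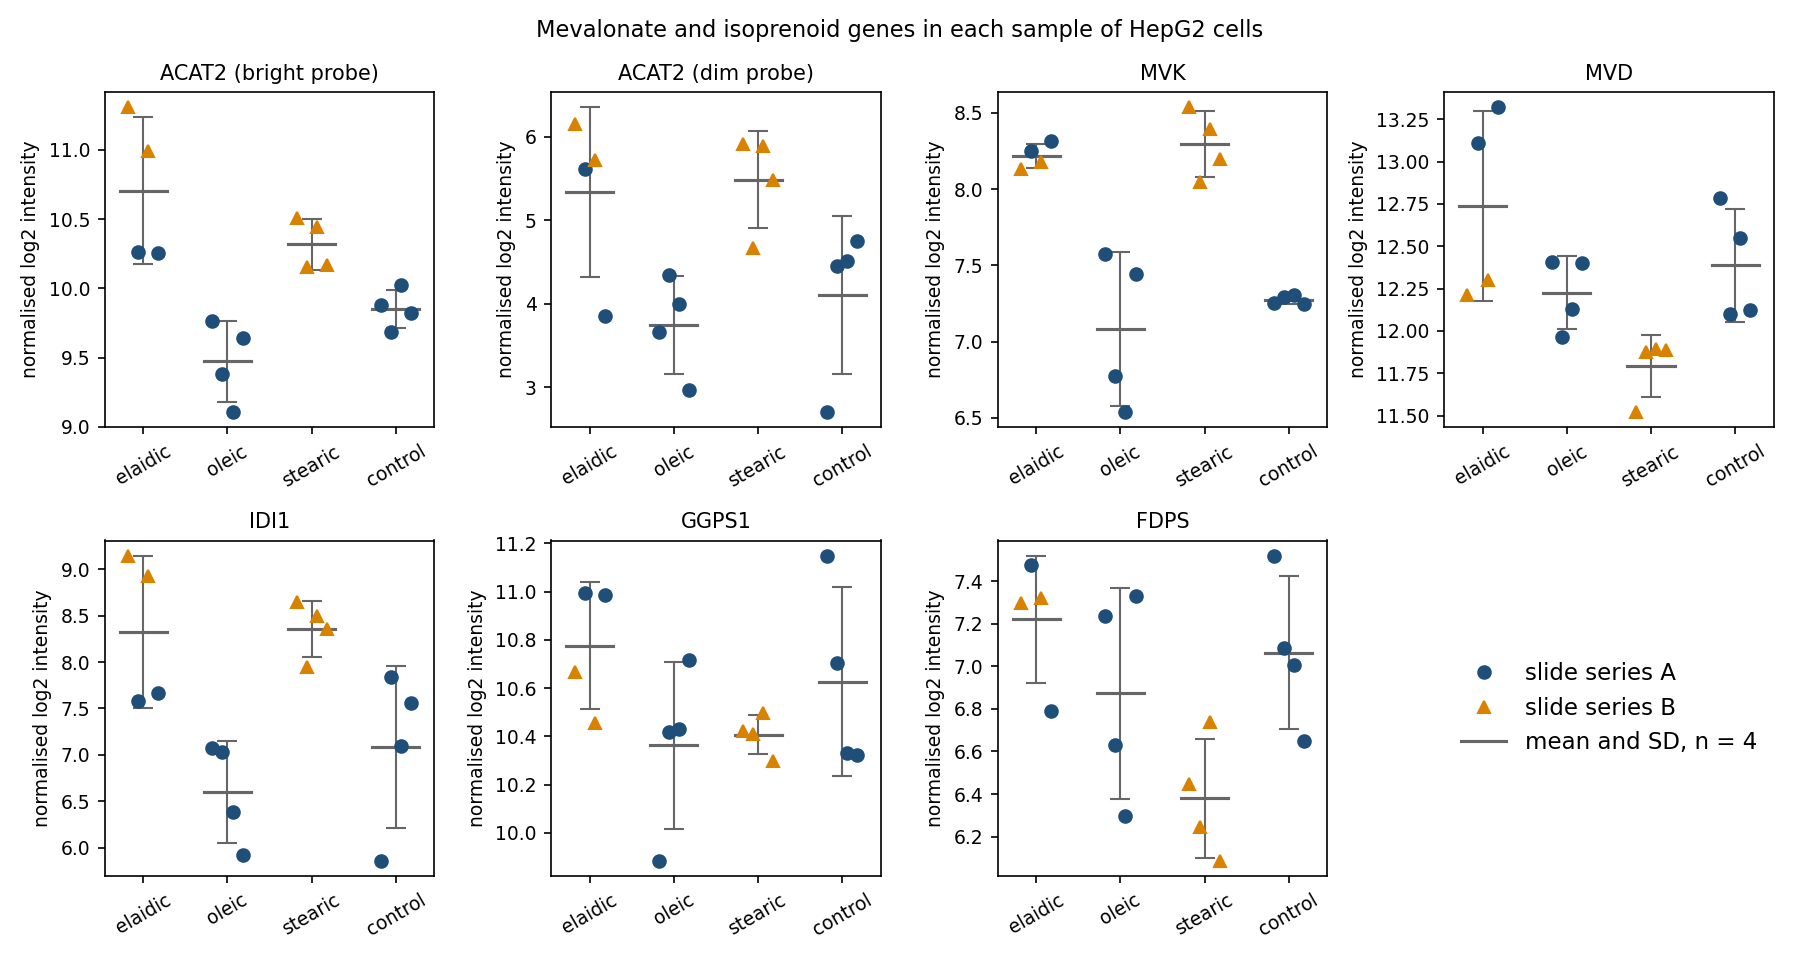
Normalised log2 intensity (vertical axes) of the 7 tested probes of the arm in each sample, by group from elaidic acid to control, with circles for slide series A, triangles for series B, and lines for the group mean and SD (n = 4). MVK lies between 8.13 and 8.32 in all elaidic acid samples and between 7.25 and 7.31 in control. The elaidic acid samples of ACAT2, MVD, IDI1 and GGPS1 separate by slide series, and those of MVK do so by less. Series B minus series A is -0.43 on average for GGPS1 and -0.13 for MVK.

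MVK, the mevalonate kinase (probe PH_hs_0027241), had the smallest spread of the 7 tested probes in elaidic acid (SD 0.08) and control samples (SD 0.03), though not in the other groups. Its log2 levels were 8.13, 8.25, 8.18 and 8.32 in elaidic acid replicates 1 to 4, against 7.25, 7.29, 7.31 and 7.25 in control replicates 1 to 4. All elaidic acid samples were above all control samples, and those of series A and series B lay close together (series B minus series A, -0.13 on average). The difference was 0.94 ± 0.23 (SE, n = 4 per group; 95% interval 0.45 to 1.44), a ratio of 1.93, at an adjusted p of 0.108, and 1.01 ± 0.28 within series A (adjusted p = 0.339). It passed in 2 of 16 alternatives of processing and samples. These were an offset of 50 added before the logarithm (0.76, adjusted p = 0.0239) and a test of only the brightest 50% of probes (adjusted p = 0.0394). Both also raised the calls over all probes, to 224 and 189 from 74. With oleic acid the levels were 7.58, 6.78, 6.54 and 7.45, a spread that spanned the control levels. The elaidic acid levels exceeded all of these, with a difference of 1.13 ± 0.23 (adjusted p = 0.0557), or 1.20 ± 0.28 inside series A (95% interval 0.59 to 1.80, adjusted p = 0.244). That difference passed in 4 of 16 alternatives. It did so with an offset of 50 (0.88, adjusted p = 0.0119) and among the brightest 50% (adjusted p = 0.0163). It also passed with cyclic loess normalisation (1.16, adjusted p = 0.0458) and without oleic acid replicate 1 (1.30, adjusted p = 0.0344). It did not pass with median scaling (adjusted p = 0.103), the replicate block (adjusted p = 0.132) or the 8 samples of the contrast alone (adjusted p = 0.397). With stearic acid the levels were 8.54, 8.05, 8.40 and 8.20, which overlapped those with elaidic acid. The difference of elaidic from stearic acid was -0.07 (95% interval -0.57 to 0.42), and -0.14 (-0.74 to 0.47) within series B.

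ACAT2, the thiolase at the entry of the pathway, was read by a bright probe (PH_hs_0014286) and a dim one (PH_hs_0035322). On the bright probe the log2 levels were 11.31, 10.26, 10.99 and 10.25 in elaidic acid replicates 1 to 4, against 9.88, 9.68, 10.02 and 9.82 in control. The 4 elaidic acid levels all exceeded the highest control level, and the pair of series B was the higher pair. The log2 difference was 0.85 ± 0.25 (SE, n = 4 per group; adjusted p = 0.173) over all samples and 0.41 ± 0.24 within series A (95% interval -0.10 to 0.92, adjusted p = 0.873), so that the size depended on the series. With oleic acid the levels were 9.76, 9.38, 9.11 and 9.64, of which 9.76 was the only one above the lowest control. The difference of elaidic from oleic acid was 1.23 ± 0.25 (adjusted p = 0.0575), or 0.78 ± 0.24 (adjusted p = 0.512) inside series A, with no overlap. The difference passed in 4 of 16 alternatives, with an offset of 50 (1.17, adjusted p = 0.0179) and among the brightest 50% of probes (adjusted p = 0.018). The other passes came without elaidic acid replicate 2 or 4 (1.38 in both, adjusted p = 0.0357 and 0.0366). Those are its samples of series A, which holds all oleic acid samples. Without replicate 1 or 3, of series B, it did not pass (1.03 and 1.13, adjusted p = 0.227 and 0.202). With stearic acid the levels ran from 10.15 to 10.51, and overlapped those with elaidic acid. The difference of elaidic from stearic acid was 0.39 ± 0.25 over all samples (95% interval -0.15 to 0.93, adjusted p = 0.447) and 0.83 ± 0.24 inside series B (0.32 to 1.34, adjusted p = 0.411), where the pair of elaidic acid samples lay above all 4 stearic acid samples.

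The dim ACAT2 probe, with intensities between 4.21 and 88.6, gave log2 levels of 6.15, 5.61, 5.72 and 3.86 with elaidic acid, against 2.70, 4.45, 4.52 and 4.75 in control. These overlapped through elaidic acid replicate 4. Its difference was 1.23 ± 0.53 (adjusted p = 0.315), and 0.63 ± 0.60 within series A (adjusted p = 1). Against oleic acid it was 1.59 ± 0.53 (adjusted p = 0.177), and 0.99 ± 0.60 within series A (adjusted p = 0.966). Against stearic acid it was -0.15 ± 0.53 (adjusted p = 0.894), and 0.45 ± 0.60 within series B (adjusted p = 1). Over the 16 samples the 2 probes had a Pearson r of 0.70, or 0.365 after each series mean was subtracted, as a description of values that share arrays.

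PMVK, the phosphomevalonate kinase (probe PH_hs_0002641), was near the background on every array. Its unscaled intensities were 7.91, 4.49, 6.25 and 5.28 with elaidic acid, -0.114, 9.01, 3.98 and 6.77 with oleic acid, 12.97, 9.02, 6.58 and 9.17 with stearic acid, and 3.89, 14.1, 14.2 and 2.98 in control. The groups overlapped, and the mean intensity stood at percentile 18.9 of all probes. With an offset of 50, which keeps the probe in the test and narrows its differences, elaidic acid differed from control by -0.06 (95% interval -0.25 to 0.12) and from oleic acid by 0.02 (-0.16 to 0.21).

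MVD, the decarboxylase that forms isopentenyl diphosphate (probe PH_hs_0023241), was the brightest of the 8 probes. Its log2 levels were 12.21, 13.11, 12.30 and 13.32 in elaidic acid replicates 1 to 4, against 12.78, 12.10, 12.55 and 12.12 in control. The elaidic acid samples of series A, replicates 2 and 4, were above all controls, and those of series B were inside the control range. The log2 difference was 0.35 ± 0.27 (SE, n = 4 per group; adjusted p = 0.531) over all samples and 0.83 ± 0.25 within series A (95% interval 0.29 to 1.37, adjusted p = 0.413). Against oleic acid, with levels of 12.40, 11.97, 12.13 and 12.40, the difference was 0.51 ± 0.27 (adjusted p = 0.304), and 0.99 ± 0.25 within series A (0.45 to 1.53, adjusted p = 0.302). Stearic acid had levels of 11.52, 11.87, 11.89 and 11.89, the lowest of the 4 groups. The difference of elaidic from stearic acid was 0.94 ± 0.27 (adjusted p = 0.133), or 0.46 ± 0.25 inside series B (-0.08 to 1.00, adjusted p = 0.958), with no overlap in either.

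IDI1, the isopentenyl diphosphate isomerase (probe PH_hs_0040326), had log2 levels of 9.14, 7.58, 8.92 and 7.67 in elaidic acid replicates 1 to 4, against 5.86, 7.84, 7.09 and 7.56 in control. The elaidic acid samples of series B were the highest of all 16 samples, and those of series A overlapped control. The difference was 1.24 ± 0.45 (SE, n = 4 per group; adjusted p = 0.246), or 0.54 ± 0.46 within series A (95% interval -0.45 to 1.53, adjusted p = 1). With oleic acid the levels were 7.07, 7.03, 6.38 and 5.92, all below every elaidic acid sample. That difference was 1.73 ± 0.45 (adjusted p = 0.124), and 1.02 ± 0.46 within series A (0.03 to 2.01, adjusted p = 0.849). Stearic acid levels were 8.64, 7.94, 8.49 and 8.35, and elaidic acid differed from them by -0.03 ± 0.45 over all samples and by 0.67 ± 0.46 within series B (-0.32 to 1.66), where its pair was above all 4.

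FDPS, the farnesyl diphosphate synthase at the branch point (probe PH_hs_0038496), had log2 levels of 7.30, 7.48, 7.32 and 6.79 with elaidic acid, against 7.52, 7.09, 7.01 and 6.65 in control. The groups overlapped widely, with a difference of 0.16 ± 0.28 (SE, n = 4 per group; 95% interval -0.43 to 0.74), and 0.07 ± 0.34 within series A. Against oleic acid, with levels of 7.24, 6.63, 6.30 and 7.33, the difference was 0.35 ± 0.28 (adjusted p = 0.448), and 0.26 ± 0.34 within series A. FDPS stood apart from stearic acid instead, whose levels of 6.45, 6.25, 6.74 and 6.09 were below every elaidic acid sample. The difference was 0.84 ± 0.28 (adjusted p = 0.193), or 0.93 ± 0.34 inside series B (0.21 to 1.66, adjusted p = 0.631).

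GGPS1, the geranylgeranyl diphosphate synthase of the isoprenoid branch (probe PH_hs_0003638), had log2 levels of 10.67, 10.99, 10.46 and 10.99 with elaidic acid, against 11.15, 10.70, 10.33 and 10.32 in control. Its groups overlapped in all contrasts, and the elaidic acid samples of series B were below those of series A. The difference of elaidic acid from control was 0.15 ± 0.24 (SE, n = 4 per group; 95% interval -0.36 to 0.66), or 0.36 ± 0.28 within series A. Oleic acid levels were 9.89, 10.42, 10.43 and 10.72, from which elaidic acid differed by 0.41 ± 0.24 (adjusted p = 0.336), and by 0.63 ± 0.28 within series A (0.03 to 1.22, adjusted p = 0.831), where both elaidic acid samples were above all 4. Stearic acid levels lay between 10.30 and 10.50, and elaidic acid differed from them by 0.37 ± 0.24, or 0.15 ± 0.28 within series B.

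Between the trans and the cis isomer, at matched dose and time, all 6 tested genes had higher means with elaidic acid than in the oleic acid samples. Their median log2 difference was 0.82 over all samples and 0.89 within series A, where the medians over all probes were -0.13 and 0.01. Without the block other lists moved as much, at medians of 0.83 for 6 reference genes and 0.87 for 8 hepatocyte markers. With the block these lists had medians of 0.22 and 0.48. None of the 7 member probes passed in either fit (0.318% and 0.0218% of all probes did). At an unadjusted p under 0.05 there were 4 of 7 over all samples and 5 of 7 with the block, where 4342 and 1341 of the 22939 probes were. Levels did not overlap for 3 of the 7 probes, those of MVK, IDI1 and the bright ACAT2 probe, all higher with elaidic acid, where 4.07% of all probes were. Inside series A the elaidic acid pair was above all 4 oleic acid samples for 5 of the 7 probes, where 6.29% of all probes were, and MVK, MVD and IDI1 had differences between 0.99 and 1.20, and FDPS the smallest at 0.26.

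**Figure D2:**
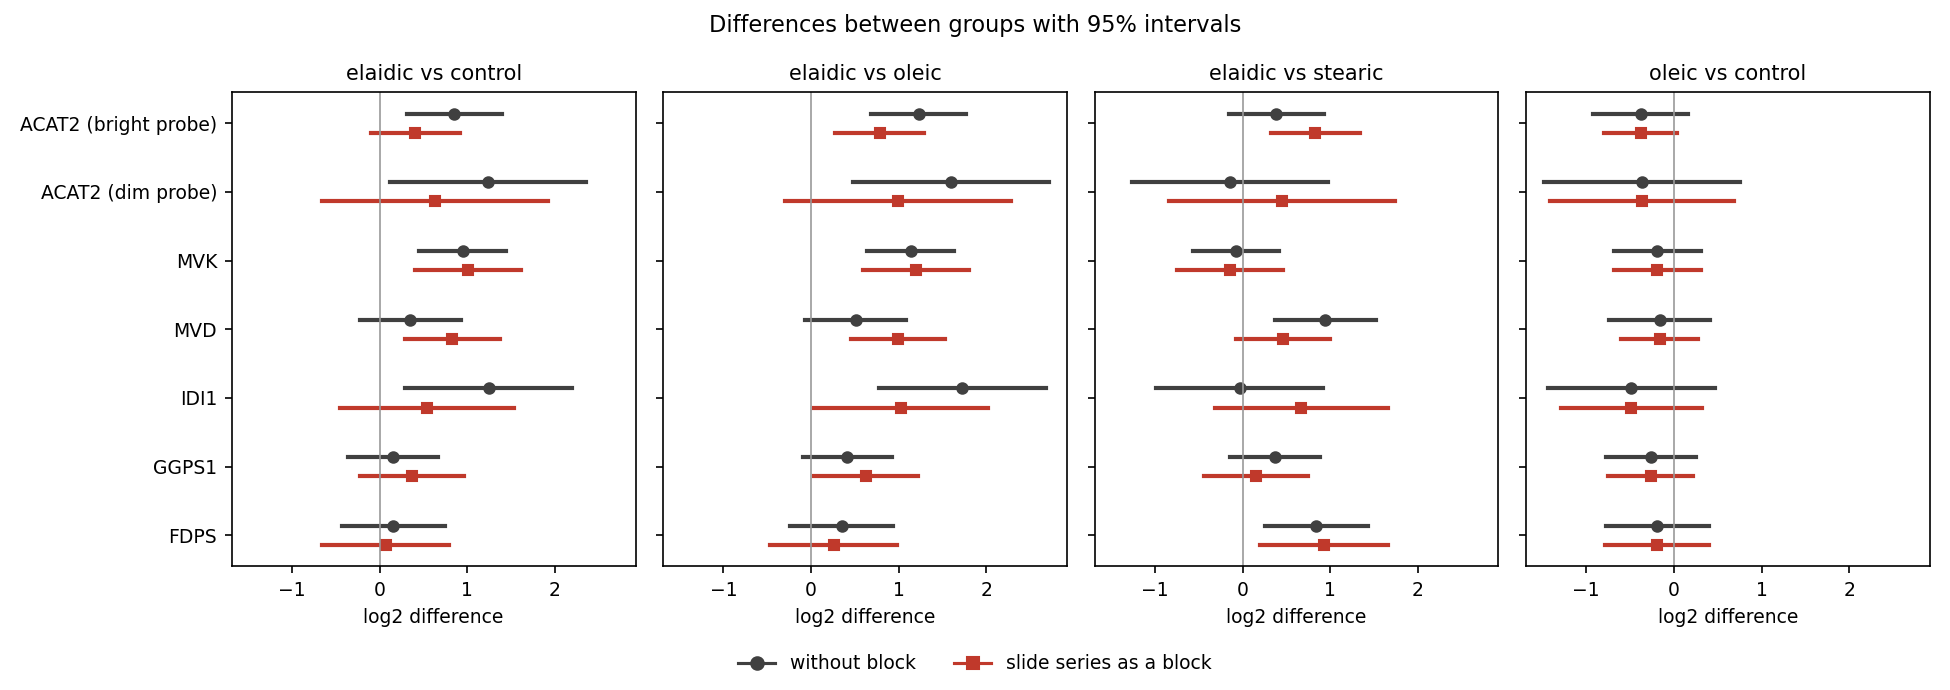
Log2 differences (horizontal axes) of the 7 tested probes with 95% intervals, for elaidic acid against control, oleic acid and stearic acid and for oleic acid against control, without a block (circles) and with slide series as a block (squares). MVK keeps its place under both fits, at 0.94 and 1.01 against control, MVD is further from control with the block (0.83) than without (0.35), and all oleic acid values lie below 0.

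Between elaidic and stearic acid no member probe passed without or with the block (0.397% and 0.00436% of all probes did). The member medians were 0.38 over all samples and 0.57 inside series B, where the medians over all probes were 0.07 and 0.02. Over all samples MVD and FDPS did not overlap, both higher with elaidic acid, where 4.72% of all probes were. Inside series B the elaidic acid pair was above all 4 stearic acid samples for MVD, FDPS, IDI1 and the bright ACAT2 probe, where 11.1% of all probes were, and overlapped them for MVK, GGPS1 and the dim ACAT2 probe.

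With oleic acid all 6 genes had lower mean levels than in control, by a median of -0.23, and all samples of this contrast were in series A. The differences ran from -0.48 ± 0.45 for IDI1 to -0.16 ± 0.27 for MVD (SE, n = 4 per group), and all 7 intervals held 0. No member probe passed limma and none was free of overlap (0.606% of all probes were, all higher, and 0.628%, all lower), and 0 of all 22939 probes passed, with 602 at an unadjusted p under 0.05, of which 0 were member probes. The largest difference that the intervals allowed was -1.48 on the dim ACAT2 probe and -1.44 for IDI1.

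Against control, MVK was higher with stearic acid by 1.02 ± 0.23 (adjusted p = 0.00713) and IDI1 by 1.27 ± 0.45 (adjusted p = 0.0446; SE, n = 4 per group), but all stearic acid samples were in series B and all controls in series A. In that contrast 29.8% of all probes passed in either direction. Upward, as for these 2 of 7 member probes, 3432 of the 22939 probes passed. The member share was not tested against that of all probes. MVD, at -0.59 ± 0.27 (adjusted p = 0.0993), and FDPS, at -0.69 ± 0.28 (adjusted p = 0.0687), pointed the other way. With the block, which reaches control only through the elaidic acid samples, MVK was at 1.15 ± 0.40 (adjusted p = 0.472), IDI1 turned to -0.13 ± 0.66, MVD turned to 0.37 ± 0.36 and FDPS was at -0.86 ± 0.48. Leaving out any 1 of control replicates 1 and 3 and stearic acid replicates 1, 3 and 4 also ended the call of IDI1, at values between 0.87 and 1.27 (adjusted p between 0.0816 and 0.153). The dim ACAT2 probe was called without control replicate 4 or stearic acid replicate 2 (1.59 and 1.65), and FDPS without control replicate 4 (-0.82). In oleic acid against stearic acid MVK, IDI1 and both ACAT2 probes were lower with oleic acid, by -1.21 ± 0.23, -1.76 ± 0.45, -0.84 ± 0.25 and -1.74 ± 0.53 (adjusted p between 0.00289 and 0.0203), where 39.5% of all probes passed and 18.4% passed downward. The call of the bright ACAT2 probe was lost without oleic acid replicate 3 or stearic acid replicate 1 or 3 (-0.80 to -0.72), and that of the dim probe without oleic acid replicate 4 or stearic acid replicate 1 or 3 (-1.61 to -1.48). With the block none of these 4 passed, and the bright ACAT2 probe turned to 0.05.

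The order of the group means differed between members. For MVD, GGPS1 and FDPS the order began with elaidic acid and then control, and these neighbours did not differ beyond their spread. For MVK, IDI1 and the dim ACAT2 probe stearic acid was first and elaidic acid next, by 0.07, 0.03 and 0.15, which was within the spread as well. The step from elaidic acid down to control was larger than either group's SD for MVK, IDI1 and the dim ACAT2 probe. Oleic acid was last for ACAT2, MVK, IDI1 and GGPS1, and stearic acid last for MVD and FDPS, where slide series differs too.

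Across the 16 samples the correlation between genes of the arm differed from pair to pair. Without regard to series, ACAT2, MVK and IDI1 correlated with each other at r between 0.724 and 0.807, and MVD with FDPS at 0.594 and with GGPS1 at 0.596, while IDI1 and MVD were at -0.36. The median over the 15 pairs was 0.131. After each slide series mean was subtracted the median was 0.425 and 14 of 15 pairs were above 0, with ACAT2 and FDPS at 0.744, ACAT2 and MVD at 0.735 and MVK and MVD at 0.692. The samples share arrays, series and groups, so these values describe the samples only.

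**Figure D3:**
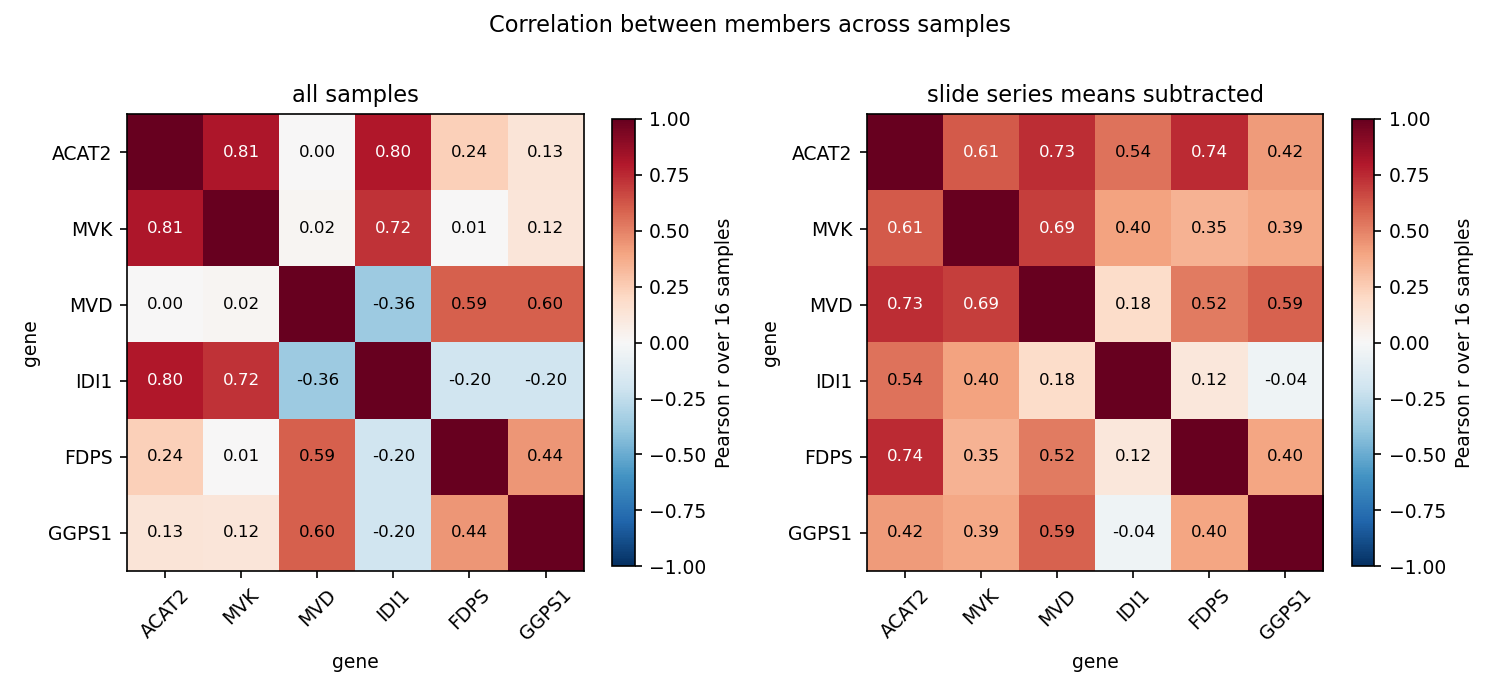
Pearson r between members over the 16 samples, by gene on both axes, with all samples as they are (left) and with each slide series mean subtracted (right). MVD is near 0 with ACAT2 and MVK on the left and at 0.735 and 0.692 on the right.

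The genes whose pattern was most like the mean standardised profile of the 6 members were sought among 13446 tested probes with 1 symbol. Over the 16 samples they were ELOVL6, a fatty acid elongase, at r = 0.926, CYC1, a subunit of respiratory complex III, at 0.898, NSDHL, which acts in sterol demethylation, at 0.897, FBLN1, an extracellular matrix protein, at 0.842, and HADH, a dehydrogenase of fatty acid oxidation, at 0.828. With series means subtracted CYC1 (0.922), NSDHL (0.92) and ELOVL6 (0.912) were again the first 3, followed by SREBF1, the gene of the lipogenic factor SREBP-1, at 0.906 and ACLY, which makes cytosolic acetyl-CoA from citrate, at 0.879.

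The next part of the pathway, from squalene to cholesterol, gave larger values. Of its 10 tested genes all 10 were higher with elaidic acid than in control, by a median of 1.19. Of these 3 passed, CYP51A1, SQLE and NSDHL, where 0.323% of all probes did. With the block the median was 0.94 and none passed. Against oleic acid the median was 1.58, and EBP, the sterol isomerase, at 1.21 ± 0.22 (1.18 ± 0.26 with the block) and SC5DL, a late sterol desaturase, at 1.93 ± 0.29 (1.60 ± 0.33) passed beside those 3 (SE, n = 4 per group). CYP51A1, the lanosterol demethylase, was at 1.78 ± 0.21 (1.55 ± 0.23) and SQLE, the squalene epoxidase, at 1.72 ± 0.26 (1.36 ± 0.27). With the block the median was 1.38 and CYP51A1 alone passed. Of all probes 0.318% passed against oleic acid without the block and 0.0218% with it. In both contrasts the median of the 6 members was lower than that of these 10 genes, and this difference between the lists was not tested. In stearic acid against control 7 of the 10 passed, all higher (FDFT1, SQLE, CYP51A1, SC4MOL, EBP, SC5DL and DHCR7). There 29.8% of all probes passed in either direction, and 3432 of the 22939 passed upward. In oleic against stearic acid 9 of the 10 passed, all lower (these 7, NSDHL and HSD17B7), where 39.5% of all probes passed and 18.4% passed downward. None passed with the block in these contrasts, in which series and fatty acid cannot be told apart.

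Of the genes that use isoprenoids 14 were tested and none passed against control or oleic acid. With elaidic acid 12 of 14 were higher than in control (median 0.33), and 10 of 14 with the block (median 0.13). The 2 of smallest p against oleic acid were COQ2, the prenyltransferase of ubiquinone synthesis, at 0.69 ± 0.23, and PDSS2, a subunit of the synthase of its side chain, at 1.14 ± 0.38 (adjusted p = 0.178 each). With the block they were at 0.63 ± 0.28 and 0.55 ± 0.39. DOLK, the dolichol kinase, was lower with elaidic than with stearic acid by -1.28 ± 0.24 (adjusted p = 0.0455), the only gene of the lists given here that passed in that contrast, and was at -1.03 ± 0.27 with the block (adjusted p = 0.363). Without the block 0.397% of all probes passed there. In stearic acid against control 5 of the 14 passed (DOLK, PDSS2, FNTB, RABGGTA and ICMT, all higher). There 29.8% of all probes passed in either direction, and 3432 of the 22939 passed upward. In oleic against stearic acid 7 of the 14 passed (these 5 and RABGGTB lower, DOLPP1 higher), where 39.5% of all probes did. All of these calls were lost with the block.

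Among 6 tested genes of SREBP control none passed in the elaidic acid contrasts. SREBF2, the gene of SREBP-2, differed between elaidic and oleic acid by 1.37 ± 0.38 (adjusted p = 0.134), and SCAP, its sterol-sensing escort, by -0.87 ± 0.26 (adjusted p = 0.159), and with the block by 0.94 ± 0.43 and -0.69 ± 0.32. The median of the 6 was 0.73 in that contrast and -0.18 with the block. In stearic acid against control SREBF2 was called higher and SREBF1 lower, and in oleic against stearic acid SREBF2, INSIG2 and MBTPS1 were called lower and SCAP higher, none of them with the block. Of all probes 29.8% passed in stearic acid against control and 39.5% in oleic against stearic acid. SOAT1, a sterol acyltransferase, passed in elaidic against oleic acid, higher by 1.09 ± 0.22 (adjusted p = 0.0488), and not with the block (0.87, adjusted p = 0.423). In that contrast 0.318% of all probes passed without the block. The other 2 tested relatives, ACAT1, the mitochondrial thiolase, and SOAT2, were at 1.85 ± 0.46 and 1.15 ± 0.41 and did not pass (0.90 ± 0.39 and 0.59 ± 0.44 with the block). ACAT1 and SOAT1 were called higher in stearic acid against control, and these 2 and SOAT2 lower in oleic against stearic acid, again none with the block.

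**Figure D4:**
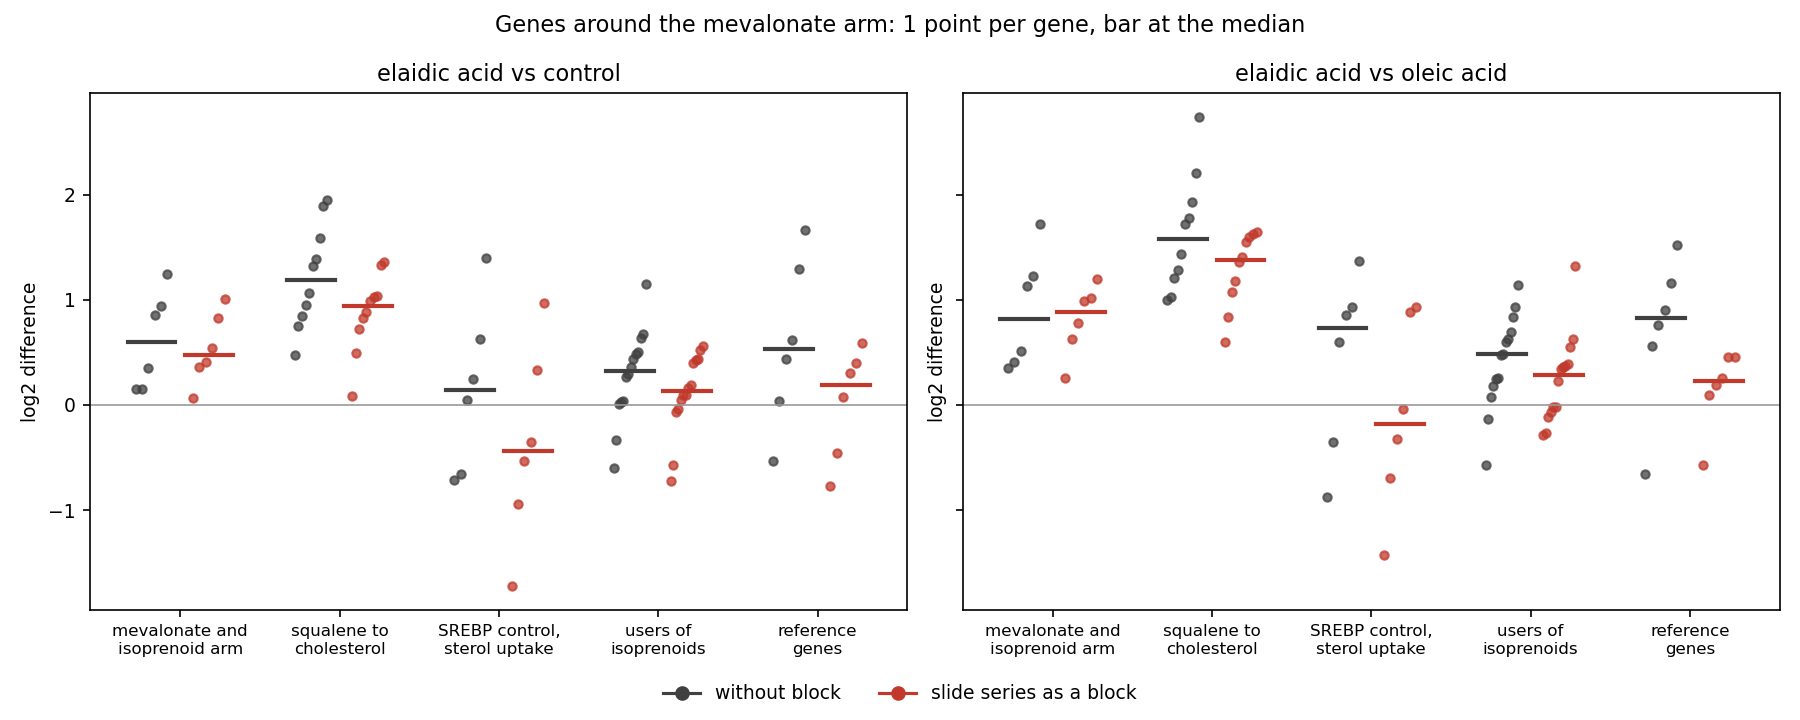
Log2 differences (vertical axes) of single genes in 5 lists, for elaidic acid against control and against oleic acid, without a block (dark) and with slide series as a block (red), with bars at the medians. All 6 members and all 10 genes from squalene to cholesterol lie above 0 in both fits, and the reference genes have medians of 0.53 and 0.83 without the block and 0.19 and 0.22 with it.

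Reference genes differed with the series. Over 6 tested reference genes the mean log2 level was 7.36 ± 0.65 in elaidic acid samples and 6.78 ± 0.47 in control samples (SD, n = 4 each), a median difference of 0.53 against 0.60 for the members. Within series A the elaidic acid samples were at 6.77 and 6.83 on that list, inside the control range of 6.37 to 7.38, and its median difference was 0.19 against 0.47 for the members. None of the 6 passed in the elaidic acid contrasts, and those of smallest p against oleic acid were YWHAZ (0.76 ± 0.27, and 0.45 ± 0.30 with the block) and B2M (1.16 ± 0.49, and 0.45 ± 0.52). The hepatocyte markers were at 13.06 ± 0.50 with elaidic acid and 12.01 ± 0.54 in control. Their median difference was 0.86 with 8 of 8 higher, against 0.60 for the members, and 0.43 with 7 of 8 higher with the block, against 0.47 for the members. Of these TTR, a plasma transport protein, was called at 1.73 ± 0.28 against control and at 1.82 ± 0.28 against oleic acid, and not with the block (1.66 and 1.75), and TF, the iron carrier of plasma, was at 2.23 ± 0.48 against oleic acid (adjusted p = 0.0656), or 1.49 ± 0.49 with the block. Without the block 0.323% of all probes passed against control and 0.318% against oleic acid. Markers of other cell types were at 5.55 ± 0.37 with elaidic acid and 5.93 ± 0.13 in control, with ranges of 5.01 to 5.83 and 5.74 to 6.01, and none of 8 passed in the elaidic acid contrasts. The endothelial markers CDH5 (-0.72 ± 0.37, and -0.28 ± 0.41 with the block) and VWF (-2.48 ± 1.32, and -5.38 ± 1.01) were those of smallest p against oleic acid, and did not pass in either fit. In stearic acid against control HPRT1, B2M, YWHAZ, APOA1, AFP, TF and SERPINA1 were called higher and PPIA and COL1A2 lower. In oleic against stearic acid PPIA, CD79A, COL1A2 and CDH5 were called higher, and HPRT1, B2M, GUSB, YWHAZ, PGK1, APOA1, AFP, TF and SERPINA1 lower, and all of these calls were lost with the block. Of all probes 29.8% passed in stearic acid against control and 39.5% in oleic against stearic acid. The part of these lists in the members' differences was not tested.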

How the data were processed

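Total RNA of 16 HepG2 samples was amplified with aminoallyl-UTP, coupled to Cy5 and hybridised to 1-colour arrays, per the labels. The authors deposited 1 linear intensity per probe and sample for 30968 probes. From the values, background is subtracted and samples are not scaled, with 3.31% to 6.24% of a sample's values at or below 0. The background method, the scanner software and the way technical arrays were combined are not given in the sources used here. Gene symbols come from the platform's probe table (17397 probes with a symbol), which gives no gene identifiers for them.

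The deposited intensity was transformed to log2, 8029 probes (25.9%) that were not above 0 throughout were dropped, and 22939 were quantile normalised. All 6 contrasts came from 1 two-sided model of the 16 samples (lmFit, then eBayes, from limma 3.58.1 under R 4.3.3), with Benjamini-Hochberg adjustment over all tested probes. The fit was tested on simulated data with independent normal noise and no slide series effect, so that test does not bear on the series. No pair of samples had identical values (r between 0.893 and 0.970 within groups). A gene of a list was represented by its probe of highest mean. Named genes were all members, list members called in a contrast, the 2 of smallest p per list in elaidic against oleic acid, and the 5 nearest profiles. Members and lists were chosen with earlier results of these data known. Alternatives covered slide series, replicate number, normalisation, offset, dim probes and samples. Fits on 1 slide series alone were chosen after seeing the data. Promoters are from RefSeq. Python 3.11.15 with matplotlib 3.10.9 drew the figures. The number of arrays limits the precision.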

Additional observations from a re-analysis of the deposited data

Results flagged for a closer look

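Among 32 groups of 4 samples (8 probes in 4 groups), 2 held a sample far from the others by Dixon's test at its 95% critical value, and chance gives about 1 in 20 groups. The dim ACAT2 probe was at 2.70 in control replicate 1, against 4.45 to 4.75 in the other controls. MVD was at 11.52 in stearic acid replicate 1, against 11.87 to 11.89 in the other stearic acid samples.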

How the results depend on the processing

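Over 42 log2 differences of member probes and all alternatives, 633 of 652 values kept their direction, among them 111 of 111 in elaidic acid against control and 111 of 111 against oleic acid. A call appeared in 15 and was lost in 16. The causes were not tested. Not all of these values were free to turn. The replicate block, the brightest 50% of probes and the 8 samples of a contrast alone repeat the difference of the main fit. Fits on 1 slide series alone repeat that of the slide series block. Their kept direction therefore adds nothing. Blocking on slide series left 9 called probes in elaidic acid against control (74 without), 5 against oleic acid (73), 1 against stearic acid (91), and 0 in stearic acid against control (6825) and in oleic against stearic acid (9057), and the member counts of the last 2 contrasts were 0 and 0 (2 and 4 without). With the replicate block the 3 elaidic acid counts were 28, 4 and 0, and 1 member probe was called in stearic acid against control. With an offset of 50 they were 224, 209 and 581, with 1 and 2 member probes called against control and oleic acid, and among the brightest 50% 189, 180 and 294, with 1 and 2. Cyclic loess called 1 member probe against oleic acid. On the 8 samples of a contrast alone, or 1 slide series alone, the 3 elaidic acid counts were 0. Median scaling gave a member median of 0.36 in stearic acid against control (0.12).

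Signs turned with the block in elaidic against stearic acid for the dim ACAT2 probe (0.45) and IDI1 (0.67), the same within series B alone. They turned in stearic acid against control for the bright ACAT2 probe (-0.43), MVD (0.37), IDI1 (-0.13) and GGPS1 (0.21, and 0.031 with median scaling), and in oleic against stearic acid for the bright ACAT2 probe (0.048) and MVD (-0.53). Leaving out 1 sample gave 25 (without elaidic acid replicate 1 or 3) to 114 (without elaidic acid replicate 4) called probes in elaidic acid against control, 3 (without elaidic acid replicate 1) to 192 (without elaidic acid replicate 4) against oleic acid with 0 to 1 member probes, 0 to 51 against stearic acid (51 without elaidic acid replicate 1, and 0 without each of the other 7 samples of that contrast), 3564 to 8207 in stearic acid against control with 1 to 4, and 4767 to 8531 in oleic against stearic acid with 2 to 4. In elaidic against stearic acid it gave -0.42 to 0.35 for the dim ACAT2 probe, -0.16 to 0.0064 for MVK and -0.30 to 0.22 for IDI1, in oleic acid against control -0.34 to 0.00025 for FDPS, and in oleic against stearic acid -0.16 to 0.12 for GGPS1.

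Replicate numbers were not treated as pairing the samples. Deviations from group means of same-numbered samples correlated between -0.462 and 0.364, over 0.1 in 7 of 24 pairs, and in 6 of these 24 pairs, which reuse the 16 samples over the 6 contrasts, the same number was the best match. Probes near background, above all PMVK and the dim ACAT2 probe, limit what can be read from them.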
